A study of Homo sapiens with 4 samples.

Results

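Tetraspanins are small membrane proteins that cross the membrane 4 times and gather integrins, proteases and receptors into shared membrane domains. The L6 family, named after the tumour antigen L6 (TM4SF1), has the same overall layout but is a separate family by sequence. In bile duct and other epithelia, members of both families take part in adhesion, migration and the shedding and release of membrane proteins and vesicles. The 38 genes described here are 32 tetraspanins and 6 L6 family genes, out of 19775 genes with a value on the arrays. They were chosen by family name after CD81 and TM4SF4 had been seen among the largest rises of the comparison described here. The differences of the members are therefore given as a description, with no test of them, and the question addressed is whether CD81 and TM4SF4 stood alone in their families.

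RNA came from cells labelled HuCCT1, an established human cholangiocarcinoma cell line. One group was ARID1A wild type (2 arrays) and the other ARID1A knockout (2 arrays); ARID1A is a DNA-binding subunit of the SWI/SNF chromatin remodelling complex. The knockout was made by lentiviral infection with lentiCRISPR v2, which carries Cas9 and a guide RNA to ARID1A, followed by puromycin and cloning by limiting dilution. The labels give neither the number of clones nor how the wild-type cells were handled, and do not tie the arrays to separate cultures. The p-values therefore reflect only how far these arrays spread, which may be technical.

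All values are deposited log2 intensities, and each difference is the knockout-labelled mean minus the wild-type mean on that scale, with the moderated standard error (SE) of limma. The labelled target fell: ARID1A read 8.55 and 8.61 on the wild-type arrays and 6.15 and 5.95 on the knockout-labelled arrays, a difference of -2.53 ± 0.11 (limma, adjusted p = 0.00014). Its other probe sets differed by -1.89, -1.88 and -0.11, the last dim and not called, and the mean of all its probe sets by -1.60. Over all genes the correlation was 0.997 within the wild type, 0.995 within the knockout-labelled pair and 0.920 to 0.921 from group to group. A check of sample identity found that 2 of the 4 arrays differed from the other 2, and each group is therefore named by its label; a comparison without those arrays could not be made. Whether a difference between the groups came with the loss of ARID1A, with clonal selection or with another difference between the cells, the identity of the line included, cannot be told apart in this design. Among the bile duct keratins, KRT7 averaged 12.45 and 10.13, and KRT19 11.44 and 10.52, in the wild-type and knockout-labelled arrays. Both were called lower. KRT8 averaged 10.45 and 11.28 and was called higher, while KRT18 averaged 12.31 and 12.55 and was not called. Among other bile duct markers the differences varied widely. SPP1 averaged 2.71 and 11.29, EPCAM 12.11 and 7.38, and CFTR 7.86 and 3.46. ANXA4 was also higher (2.88) and MUC1 lower (-0.77), while SOX9 (0.22) and GGT1 (0.02) were not called.

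Of the 38 members, 37 had at least 1 probe set carrying their symbol alone; TM4SF19 had none. A gene was called where its adjusted p in the limma fit over all genes was under 0.05, a rule met upward by 21.5% and downward by 17.2% of all genes. Of the 37 members, 12 were called higher, 9 were called lower and 16 were not called. At a difference of at least 2-fold, which 8.69% of all genes reached upward and 7.89% downward, 7 members were higher and 7 were lower. Nothing is read from these counts or from those of single groups of members given below, because the families were selected on this same comparison. The median difference was 0.08 over the members and 0.06 over all genes. The 16 members without a call had differences between -0.36 and 0.47.

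**Figure D1:**
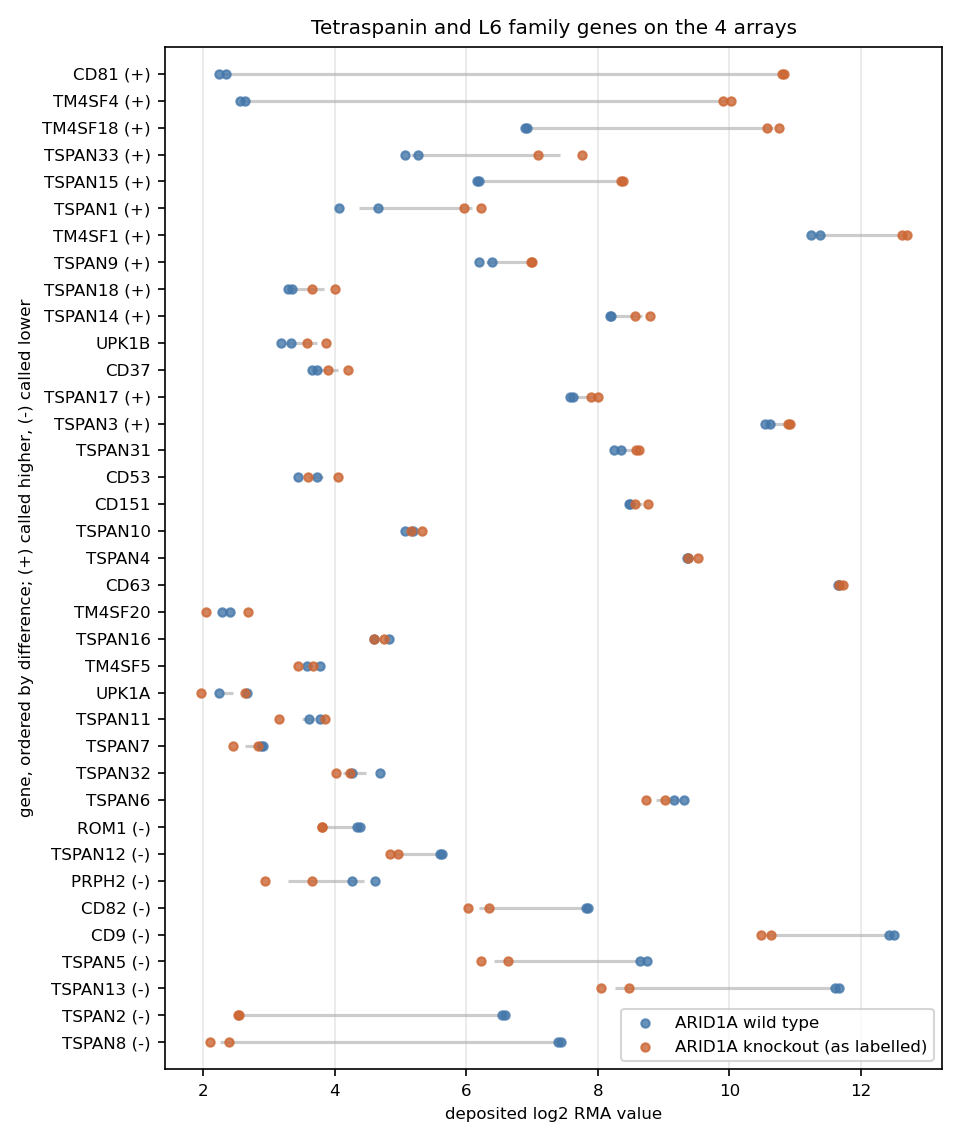
Deposited log2 intensity of each of the 37 measured members on the 2 wild-type and 2 knockout-labelled arrays, 1 row per gene. CD81 and TM4SF4 go from below 3 to about 10 or above, while TSPAN8 and TSPAN2 go from about 7 to below 3.

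CD81 had the largest difference of the tetraspanins. It is part of the B cell co-receptor complex and an entry receptor of hepatitis C virus. CD81 read 2.34 and 2.24 on the wild-type arrays and 10.80 and 10.84 on the knockout-labelled arrays. The groups lay far apart, and the replicates of each differed by about 0.1 or less. The difference was 8.53 ± 0.10, or 369-fold on the deposited scale, the rise ranked 3 among all genes. It moved CD81 from percentile 19.5 of the wild-type arrays to percentile 98.3 of the knockout-labelled arrays. The size of this fold depends on how the dimmest values are scaled: with every value under 4 set to 4 the difference was 6.82. CD81 was measured by 1 probe set, so no other probe set of the gene bears on it. RNA was taken from whole cultures, in which more cells expressing a gene and more RNA per cell cannot be told apart.

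CD9, a close relative of CD81, went the other way. CD9, a tetraspanin of cell adhesion and of egg and sperm fusion, read 12.50 and 12.43 in the wild-type and 10.49 and 10.63 in the knockout-labelled arrays, a difference of -1.91 ± 0.11. CD82, also called KAI1 and known as a metastasis suppressor, read 7.82 and 7.85 against 6.34 and 6.03, a difference of -1.65 ± 0.13. In both genes every knockout-labelled array lay below every wild-type array. The groups did not overlap for 30 of the 37 measured members, uncalled ones included, so nothing is read from this separation. CD63, a tetraspanin of late endosomes and exosomes, was bright on all arrays, at 11.66 and 11.66 against 11.74 and 11.67, a difference of 0.04 ± 0.09 that was within its error. CD151, which binds laminin-binding integrins, read 8.48 and 8.48 against 8.76 and 8.57, a difference of 0.18 ± 0.11 that was not called. CD37 and CD53, tetraspanins of leukocytes, were dim and not called, with differences of 0.36 and 0.24. CD81 was thus the single gene called higher among the 7 classical CD-named tetraspanins, with CD9 and CD82 called lower. Among the 3 tetraspanins most often used as surface markers of extracellular vesicles, CD81 was called higher, CD9 was called lower and CD63 was not called.

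Among the TspanC8 tetraspanins, which escort the protease ADAM10 out of the endoplasmic reticulum and steer it to its substrates, members went in both directions. TSPAN33 read 5.26 and 5.06 on the wild-type arrays and 7.77 and 7.10 on the knockout-labelled arrays, a difference of 2.27 ± 0.24. TSPAN15, which directs ADAM10 to N-cadherin, read 6.19 and 6.17 against 8.38 and 8.36, a difference of 2.19 ± 0.09. TSPAN5, which promotes Notch processing by ADAM10, read 8.74 and 8.64 against 6.63 and 6.22, a difference of -2.27 ± 0.16. The rise of TSPAN33 and the fall of TSPAN5 were of the same size. The groups did not overlap for either gene, as for most members. TSPAN14 (0.48 ± 0.12) and TSPAN17 (0.34 ± 0.10) were called higher by less than 2-fold, and TSPAN10 was not called (0.11 ± 0.11). In all, 4 of the 6 TspanC8 genes were called higher and 1 lower, against 21.5% and 17.2% of all genes. At 2-fold or more, 2 were higher and 1 was lower. Nothing is read from these TspanC8 counts.

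The largest falls were among the other TSPAN genes. TSPAN8, a tumour antigen of gastrointestinal carcinomas also known as CO-029, read 7.39 and 7.45 in the wild-type and 2.11 and 2.40 in the knockout-labelled arrays. The difference was -5.17 ± 0.13, or 35.9-fold lower on the deposited scale, and -3.42 with values under 4 set to 4. TSPAN8 thus went from percentile 84.6 of the wild-type arrays to percentile 17.8 of the knockout-labelled arrays. TSPAN2, best known from oligodendrocytes, read 6.54 and 6.59 against 2.53 and 2.53, a difference of -4.03 ± 0.09, or -2.57 with the same floor. TSPAN13 read 11.67 and 11.61 against 8.47 and 8.06, a difference of -3.38 ± 0.16 with or without the floor. With the floor, therefore, the fall of TSPAN13 was larger than that of TSPAN2. TSPAN13 still stood at percentile 90.1 of the knockout-labelled arrays, although it was 10.4-fold lower there. TSPAN1, found in many epithelia and carcinomas, read 4.07 and 4.66 against 5.96 and 6.23, a difference of 1.73 ± 0.23. TSPAN1 was the single gene of these 15 to be called higher by at least 2-fold, as were 8.69% of all genes. TSPAN1 lost the call with values under 4 set to 4.

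Smaller differences completed this group. TSPAN12, a co-receptor that strengthens norrin signalling through FZD4, was called lower (-0.71 ± 0.10), and TSPAN9 (0.70 ± 0.11), TSPAN18 (0.52 ± 0.14) and TSPAN3 (0.34 ± 0.10) were called higher. TSPAN6 read 9.17 and 9.30 against 9.02 and 8.74, which was not called (-0.36 ± 0.14), although its other probe set was called lower at -0.71. TSPAN31, TSPAN4, TSPAN16, TSPAN11, TSPAN7 and TSPAN32 were not called, with differences between -0.35 and 0.30. Among the 4 uroplakin and photoreceptor tetraspanins, 2 were called lower. PRPH2, which shapes the rims of photoreceptor discs, read 4.61 and 4.27 against 2.93 and 3.65, a difference of -1.15 ± 0.27, which was -0.44 and not called with values under 4 set to 4. Its partner ROM1 was called lower as well (-0.56 ± 0.09). UPK1A and UPK1B, which build the plaques of the bladder surface, were not called (-0.16 ± 0.27 and 0.47 ± 0.14). Of the members past the call threshold TSPAN17 was the nearest to it, and UPK1B was the nearest on the other side. All 7 members called at less than 2-fold lost the call in at least 1 of the 4 fits that left out an array, as did PRPH2 in 3 of them; the other 13 called members kept it in all 4. Both groups averaged under 4 for 8 members (TSPAN18, UPK1B, CD53, TM4SF20, TM4SF5, UPK1A, TSPAN11 and TSPAN7), of which TSPAN18 alone was called.

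In the L6 family, 3 of the 5 measured genes were called higher and 0 lower by limma, also 0 lower at an unadjusted p under 0.05. The shares called over all genes were 21.5% higher and 17.2% lower. Nothing is read from the L6 count, since the family was chosen after the rise of TM4SF4 had been seen. TM4SF4, known from intestine and liver, read 2.56 and 2.63 on the wild-type arrays and 10.02 and 9.90 on the knockout-labelled arrays. The difference was 7.37 ± 0.10, or 165.0-fold on the deposited scale, the rise ranked 8 among all genes, and 5.96 with values under 4 set to 4. TM4SF18, which is closely related to TM4SF1, read 6.89 and 6.93 against 10.75 and 10.57, a difference of 3.75 ± 0.11. TM4SF1, the L6 antigen of carcinomas and endothelium, was bright in both groups, at 11.37 and 11.25 against 12.62 and 12.70, a difference of 1.35 ± 0.10. For all 3 genes both knockout-labelled arrays lay above both wild-type arrays, and the gaps were many times the spread between replicates. Groups without overlap were seen for 30 of the 37 measured members, so the separation alone says little. TM4SF5, studied in liver cancer, and TM4SF20 were dim and not called, with differences of -0.12 ± 0.13 and 0.01 ± 0.23.

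The 3 L6 genes called higher are neighbours on chromosome 3, in the order TM4SF18, TM4SF1 and TM4SF4 in RefSeq. The sequences just before their transcription starts are shown because these genes lie side by side and rose together by very different amounts. Each is the 250 bases before the start from RefSeq (GRCh38.p14), printed 5′ to 3′ on the strand of the gene, with matches to the searched motifs in capitals. TM4SF4 is on the plus strand at chr3:149474447-149474696, TM4SF1 on the minus strand at chr3:149377650-149377899, and TM4SF18 on the minus strand at chr3:149333637-149333886.
TM4SF18: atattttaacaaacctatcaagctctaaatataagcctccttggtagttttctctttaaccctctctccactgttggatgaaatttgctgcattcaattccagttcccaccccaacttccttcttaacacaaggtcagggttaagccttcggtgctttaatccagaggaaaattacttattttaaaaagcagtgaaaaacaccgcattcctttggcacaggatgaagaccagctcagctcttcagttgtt
TM4SF1: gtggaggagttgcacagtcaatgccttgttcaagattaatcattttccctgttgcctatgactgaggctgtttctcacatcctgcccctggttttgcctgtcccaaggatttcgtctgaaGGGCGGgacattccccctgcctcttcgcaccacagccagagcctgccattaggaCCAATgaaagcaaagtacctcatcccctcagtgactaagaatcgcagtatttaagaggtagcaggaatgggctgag
TM4SF4: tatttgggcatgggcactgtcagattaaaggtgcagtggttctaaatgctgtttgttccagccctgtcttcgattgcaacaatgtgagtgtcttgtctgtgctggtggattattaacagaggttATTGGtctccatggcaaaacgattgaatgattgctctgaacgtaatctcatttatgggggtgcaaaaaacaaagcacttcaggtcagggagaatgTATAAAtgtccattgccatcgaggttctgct
Both strands were searched for 4 motifs: TATAAA (the TATA box), GGGCGG (the GC box), CCAAT, and TGANTCA (the AP-1 site, with N for any base). Over 35116 promoters of the same length, 10.7% held TATAAA, 42.6% GGGCGG, 32.0% CCAAT and 6.57% TGANTCA. TM4SF4 held TATAAA from 31 to 26 bases before the start and CCAAT on the opposite strand from 126 to 122 bases before it. TM4SF1 held GGGCGG from 130 to 125 and CCAAT from 76 to 72 bases before the start, and TM4SF18 held none of the 4. The 3 windows therefore shared no motif of this search apart from CCAAT in TM4SF1 and TM4SF4. All 3 were poor in CpG, with 4 in TM4SF4, 4 in TM4SF1 and 2 in TM4SF18, against a median of 11 over all promoters. A match describes the letters only, and no binding or methylation was measured.

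The rise of the L6 genes was shared by the next gene with a value on one side. WWTR1, which encodes the Hippo pathway co-activator TAZ, read 9.34 and 9.42 in the wild-type and 11.97 and 11.99 in the knockout-labelled arrays, a difference of 2.60 ± 0.10 (limma, adjusted p = 8.24e-05). All 3 probe sets of WWTR1 were higher, by 2.38 to 2.60. Its antisense gene WWTR1-AS1 was not called (0.19, adjusted p = 0.56), and COMMD2 beyond it rose by 0.69 ± 0.10 (limma, adjusted p = 0.00547), though its other probe set differed by 0.15. On the other side, CP (-0.21), HPS3 (-0.23) and HLTF (-0.03) were not called, though 1 of the 4 probe sets of CP was called lower (-0.50). The run of higher values thus began at TM4SF18 and included TM4SF1, TM4SF4 and WWTR1. The order of these genes comes from RefSeq, and genes with no value on the arrays were passed over.

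No such run was seen around CD81, though most of its neighbours were dim. On chromosome 11 the order is TH, ASCL2, C11orf21, TSPAN32, CD81-AS1, CD81, TSSC4, TRPM5 and KCNQ1, and CD81 alone was called among these 9 genes. TSPAN32, the tetraspanin next to CD81, read 4.68 and 4.27 against 4.02 and 4.23, a difference of -0.35 ± 0.17. CD81-AS1, on the opposite strand, differed by 0.49 (limma, adjusted p = 0.113), and TSSC4 by -0.00. All 7 neighbours outside the families differed by between -0.26 and 0.49, with 0 called by limma and 0 at an unadjusted p under 0.05. These counts used the brightest probe set of each gene. Other probe sets of KCNQ1 (0.43), C11orf21 (-0.29) and ASCL2 (0.09) were not called either. TH, ASCL2, C11orf21 and TRPM5 averaged under 4 in both groups, so small differences there could not be resolved. The other adjacent pairs did not move together either: CD151 and TSPAN4 were both not called, while CD82 was lower and TSPAN18 higher. TSPAN18 was dim, and its difference was 0.0006 with values under 4 set to 4. Beside CD151 and TSPAN4, 2 of 7 neighbours were called, CRACR2B (-1.55) and CHID1 (-0.99). There, another probe set was called for AP2A2 (0.72) and for POLR2L (-0.59), though the brightest was not. Beside CD82 and TSPAN18, 1 of 6 was called, EXT2 (-1.36), while another probe set of PRDM11 was called higher (1.81). Over all genes, 38.7% were called in either direction.

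The gap between the leading genes and the rest of their families can be stated on the log2 scale. CD81 rose by 6.26 more than TSPAN33, the next tetraspanin. TM4SF4 rose by 3.62 more than TM4SF18, the next L6 gene. With values under 4 set to 4 these gaps were 4.55 and 2.21. In size, each stood apart from its family. Both had been seen among the largest rises before the families were chosen, so nothing is concluded from this lead. The gap of TM4SF4 also depends on the probe set, since the other probe set of TM4SF18 rose by 4.87. In direction, TM4SF4 was joined by TM4SF18 and TM4SF1. CD81 was joined by 8 other tetraspanins called higher, while 9 were called lower. Only 117 of all 19775 genes rose by more than 16-fold, and no tetraspanin but CD81 was among them.

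Members with several probe sets allowed a check of the representative one. There were 70 member probe sets, with 16 members measured by 1 and 21 by several, and no gene had probe sets called in opposite directions. The other probe set of TM4SF18 rose by 4.87, more than the representative one. For TM4SF1, 3 of 5 probe sets were called higher (1.35, 1.67 and 1.61), and the other two, both dim, differed by -0.24 and 0.27. All 3 probe sets of TSPAN5 were lower, by 1.48 to 2.27, as were the 3 of TSPAN2, where the dimmest differed by -0.62. Of the 3 probe sets of CD9, 2 were called lower and a dim one differed by 0.12, and both of CD82 were called lower (-1.65 and -2.00). CD81, TM4SF4, TSPAN8, TSPAN13, TSPAN15, TSPAN33 and TSPAN1 rested on 1 probe set each.

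The promoter set used here held windows for 30 of the 38 members, 50 windows in all. CD81 was among the 8 members without a window. Among the fallers, the windows of TSPAN8 held 1 and 2 CpG, against 22 in TSPAN13, 30 in TSPAN2 and 43 in TSPAN5. Strong falls therefore occurred both with CpG-poor and with CpG-rich windows.

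The proteins that tetraspanins bind were described from lists of 45 genes, of which 43 had a value. Of these, 14 were called higher and 16 lower, with a median difference of 0.06. Over all genes 21.5% were called higher and 17.2% lower. The share called depends on brightness: without the genes below the 40th percentile, 63.0% of all genes were called. In that fit 13 partner genes were called higher and 14 lower. Nothing is read from these counts. Among the 8 integrin subunits, ITGB4 (0.51, adjusted p = 0.0208) and ITGA7 (0.46, adjusted p = 0.0284) were higher and ITGA2, the collagen-binding subunit, was lower (-1.53 ± 0.15, adjusted p = 0.00138, limma). ITGB1, the common partner of CD9, CD81 and CD151, differed by 0.04. Of the immunoglobulin-domain partners of CD9 and CD81, PTGFRN fell (-0.66) and IGSF3 rose (0.61). ADAM10, the protease of the TspanC8 genes, rose by 0.74 ± 0.10 (limma, adjusted p = 0.00436), with NOTCH1 (0.93) and ADAM17 (0.38) also higher. Among the shed proteins, E-cadherin (CDH1, -3.51), CD44 (-0.70) and N-cadherin (CDH2, -0.55) were lower. In RNA, TSPAN15 rose while its ADAM10 substrate N-cadherin fell slightly, and TSPAN5 fell while NOTCH1 rose. Cleavage of these proteins was not measured.

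Of the list of claudins, EPCAM and virus entry factors, 2 of 6 genes were called higher and 4 lower. EPCAM, which forms a complex with CLDN7, TSPAN8 and CD44 in carcinoma cells, fell by 4.73 ± 0.11 (limma, adjusted p = 2.57e-05), and CLDN7 fell by 4.85 ± 0.31 (limma, adjusted p = 0.000369). Of the host factors that act with CD81 in hepatitis C virus entry, SCARB1 (0.72) and CLDN1 (0.53) were higher, whereas OCLN (-2.72) and EGFR (-1.67) were lower. IFITM1, which associates with CD81, fell by 2.26. In the B cell co-receptor, CR2 stood low on all arrays (means 2.78 and 2.10) and was called lower (-0.68). The call of CR2 rested on 1 of its probe sets, and with another in its place the difference was 0.087. Of the uroplakins that pair with UPK1A and UPK1B, UPK3B fell (-1.33), and UPK2 (0.08) and UPK3A (0.08) were not called.

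Among receptors known to associate with tetraspanins, FZD4, the receptor served by TSPAN12, rose by 1.82 and ADGRG1, a partner of CD9 and CD81, by 1.32. KIT fell by 2.16, and MET differed by 0.01. The vesicle machinery was mixed, with 4 of 9 genes higher and 3 lower. RAB27B rose by 1.61 while its paralog RAB27A fell by 2.06, and SDC4 fell by 2.18 while SDC1 rose by 1.00. Of the genes of the ESCRT system, VPS4A rose by 1.05 and VPS4B by 0.91, HGS fell by 0.59, and TSG101 (-0.16) was not called.

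Markers of other cell types were read beside these values. Of the 5 measured leukocyte markers, 0 were called higher by limma (1 at an unadjusted p under 0.05) and CD14 was called lower; their means ran from 2.11 to 4.96 in the wild-type and from 2.01 to 3.91 in the knockout-labelled arrays, and PTPRC, the pan-leukocyte gene, stood at 2.11 and 2.01. None of the 4 endothelial markers was called by limma (1 was higher at an unadjusted p under 0.05), at 1.75 to 4.67 in the wild-type and 1.79 to 4.76 in the knockout-labelled arrays. Of 6 fibroblast markers 2 were lower (COL1A1, -4.76, and LUM, -5.24), with means of 2.96 to 8.96 in the wild-type and 1.31 to 4.88 in the knockout-labelled arrays. Of 7 hepatocyte markers 3 were higher, among them FGB (2.20), and SERPINA1 was lower (-4.57), with means of 1.79 to 10.72 and 2.71 to 6.15. Of 11 bile duct markers 3 were higher and 5 lower, among them SPP1 (8.58), EPCAM (-4.73) and CFTR (-4.40), with means of 2.71 to 12.45 and 3.46 to 12.55. The part of these shifts in the members' differences was not tested.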

How the data were processed

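The authors deposited 1 table of log2 intensities from Affymetrix 3′ expression arrays. Affy and RMA are the tools named, per the submitters' processing notes, and versions are not given in the sources used here. RMA subtracts background, forces all arrays to 1 distribution and combines the probes of each probe set, so an overall difference in RNA is removed. It gives no detection call, and its low values are compressed. Of 54613 probe sets, the platform annotation of 2016 named 41091 by 1 gene symbol, 1801 by several and 11721 by none; 41037 matched RefSeq (GRCh38.p14) by gene identifier. Where a gene had several probe sets, the brightest on average was taken, giving 19775 genes.

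The comparison of 2 knockout-labelled with 2 wild-type arrays used lmFit and default eBayes of limma 3.58.1 (R 4.3.3), with no covariate or filter, with Benjamini-Hochberg adjustment over all genes and a threshold of 0.05. The fit was tested on simulated data. The number of arrays limits the precision. The members and lists were chosen with earlier results of these data known. Members were given on every array where called at 2-fold or more, with CD9, CD63, CD82, CD151 and the L6 genes whatever they did; from each partner list up to 3 called genes each way were taken, by size. Single further genes were named after their values were seen. The 12 listed and 2 added alternatives changed the probe set rule, filter, fit, scaling, block or arrays. Same-numbered arrays were not paired: their deviations from the group means correlated at -0.10 over all genes.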

Additional observations from a re-analysis of the deposited data

How the results depend on the processing

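The added alternatives, a floor of 4 and a crossed block, were chosen after seeing the data. Of the 14 members called at 2-fold or more, 12 kept direction and call in every alternative that gave a value; PRPH2 lost its call without either wild-type array, without knockout replicate 1 and with the floor, and TSPAN1 with the floor. No member reversed. The difference of CD81 ran from 8.48 to 8.58, and was 6.82 with the floor; that of TM4SF4 ran from 7.31 to 7.42, and was 5.96 with the floor. The gap from CD81 to TSPAN33 was 4.55 with the floor, and that from TM4SF4 to TM4SF18 2.21. Leaving out 1 array gave 7 (without wild type replicate 2) to 9 members called higher, and 7 (without wild type replicate 2) to 11 partner genes called higher, with 8 without wild type replicate 1. Over all genes, 2055 were called higher and 1884 lower without wild type replicate 1, and 2298 and 1763 without wild type replicate 2. The median difference of the members was 0.18 without the genes below the 40th percentile of brightness. With the floor, 9 partner genes were called higher. Leaving out probe sets whose names end in _x_at or _s_at, 10 partner genes were called lower and the difference of CR2 turned to 0.087; ARID1A and CD151 had no value there. With the replicate block, 8 members were called higher and 9 lower (TSPAN3, TSPAN14, TSPAN17 and TSPAN18 lost the call), and 3675 genes higher and 3004 lower over all. With the pairs crossed, 4069 were higher and 3232 lower. The cause of these shifts was not tested, beyond fewer arrays or genes. With 2 arrays a group and dim probe sets, small differences could not be resolved.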
